A study of Arabidopsis thaliana with 28 samples.

Results

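The response of dark-grown Arabidopsis seedlings to 12 h of abscisic acid was measured as poly(A) RNA in 4 whole-seedling libraries, among 28 libraries that cover 7 times. All 4 came from the accession Col-0, raised without light in hydroponic culture for 3 days, then given 10 µM abscisic acid (ABA) in 2 libraries or ethanol alone (mock) in the other 2, still in darkness. The labels name no mutation or transgene in either group. The 4 libraries were taken by their labelled treatment and time, and ABA was compared with mock across 18310 genes, on the scale log2(RPKM + 1), where RPKM is the number of reads scaled to gene length and library depth. The labels do not say whether replicates were separate cultures, so each p-value measures the spread between libraries, which may be technical.

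Abscisic acid is the plant hormone of drought, seed maturation and dormancy. PYR/PYL receptors that bind it block the clade A protein phosphatases type 2C (PP2Cs), which frees SnRK2 kinases to phosphorylate bZIP factors of the ABF and ABI5 family. These factors bind the ABA-responsive element, or ABRE, a promoter motif with the core ACGTG. In seedlings the hormone is known to slow growth and to switch on genes for protective proteins, compatible solutes and the lipid barriers of the root and shoot surface.

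Reads recovered from the RPKM values came to 22.4 M reads and 20.9 M reads in the ABA libraries of 12 h and 26.6 M and 20.4 M in the mock libraries, within the 16.27 M to 26.60 M of all 28. The replicates of 12 h correlated across genes at 0.978 (ABA) and 0.984 (mock), as Pearson correlations of log2(RPKM + 1), which describe the libraries and are no test. Genes of the organelle genomes took 0.22% and 0.234% of the reads in replicate 1 of ABA and mock but 1.271% and 1.219% in replicate 2, so that share moved with the replicate number and not with the treatment. None of the 4 measured root markers, 4 shoot apex and epidermis markers and 7 stomatal markers was called different, though 1 stomatal marker was lower without ABA replicate 1. With a term for each pair of same-numbered ABA and mock libraries, 1 root marker was lower. Of the stomatal markers 1 was then higher and 2 were lower, and no shoot marker was called. Of all genes 16.6% were higher and 11.8% lower with that term. The summed RPKM of the root markers was 35.3 and 35.2 with ABA and 40.2 and 40.1 in mock. That of the shoot markers was 810 and 639 against 701 and 590. The root cell identity gene SCR, at 20.4 and 22.2 RPKM with ABA and 22.0 and 22.6 in mock, and the epidermal gene ATML1, at 39.6 and 41.0 against 40.4 and 37.8, were read in every library. In whole seedlings, fewer cells of a type and less RNA per cell cannot be told apart.

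At 12 h, 1532 genes were higher and 749 lower with ABA (limma moderated test on all 28 libraries, two-sided, Benjamini-Hochberg adjusted p under 0.05), which is 8.37% and 4.09% of the genes tested. On the scale log2(RPKM + 1) increases were larger than decreases. By at least 1 log2 unit 812 genes rose and 300 fell, by at least 3 133 rose and 17 fell, and by at least 5 19 rose and 1 fell. A decrease on this scale cannot exceed the mock level itself, and an increase has no such limit. The gene GSTF14, with 1 ABA read against 618 in mock, scored -3.78. The counts of large changes are therefore not comparable between directions. In 23 of the called genes both mock libraries were under 1 RPKM and both ABA libraries over 10 RPKM. In 11 both ABA libraries were under 1 RPKM and both mock libraries over 10 RPKM. The median difference over all genes was 0.009, and its median standard error was 0.19. The ABA and mock libraries did not overlap in any of the 2281 called genes, an arrangement seen in 27.2% of all genes with ABA higher and in 25.4% with ABA lower. With a term for each pair of ABA and mock libraries that shares a replicate number, 3046 genes were higher (16.6%) and 2162 lower (11.8%), and 2280 of the 2281 were among them. Increases made up 67.2% of the calls, but 56.1% after quantile normalization, which moved the median of all genes to -0.058. A larger share of decreases than of increases was lost without ABA replicate 2, mock replicate 1 or mock replicate 2. Without ABA replicate 1 a larger share of increases was lost. The 749 became 409 without ABA replicate 2, 421 without mock replicate 1 and 457 without mock replicate 2. In the authors' deposited table, 1515 genes were higher and 772 lower at 12 h with a false discovery rate under 0.05, and 1389 and 674 of them were also called here, 91.7% and 87.3% of the authors' lists and 90.7% and 90% of the lists here.

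**Figure D1:**
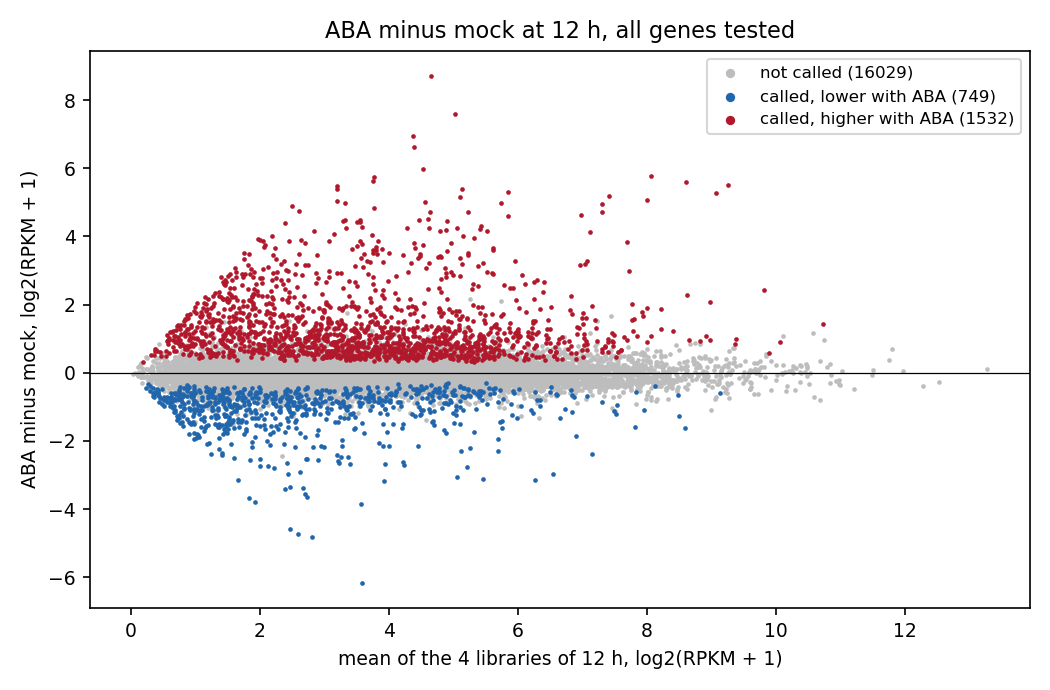
Difference between ABA and mock at 12 h (vertical axis, log2(RPKM + 1)) against the mean of the 4 libraries of 12 h (horizontal axis, log2(RPKM + 1)), 1 point a gene, coloured by call. The 1532 red points reach 8.70 and the 749 blue points reach -6.15, and no called decrease lies among the most abundant genes.

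LTP4, a lipid transfer protein (chr5:23924990-23925957, minus strand), stood at 708 and 368 RPKM with ABA and at 0.399 and 0.0766 RPKM in mock, where only 7 and 1 reads were counted. Its difference was 8.70 (SE 0.37, limma adjusted p = 2.81e-11), the largest of all genes. Its neighbour LTP3 (chr5:23928954-23929816, plus strand) stood at 580 and 353 RPKM with ABA against 1.74 and 0.992, a difference of 7.60 (SE 0.34). Mock held 33 and 14 reads of LTP3, both ABA groups were at 353 RPKM or more, and replicate 1 was the higher ABA library in each. LTP3 and LTP4 are close copies in sequence, so how the counting split reads between them is uncertain.

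PELPK1 and PELPK2 encode proline-rich proteins of the cell wall. PELPK1 had 222 and 195 RPKM with ABA and 1.22 and 1 in mock (difference 6.63, SE 0.18, limma adjusted p = 8.38e-14), and its neighbour PELPK2 had 71.2 and 47.8 against 0.573 and 0.256 (5.40, SE 0.34). AT2G22510, of the same hydroxyproline-rich annotation, had 296 and 177 against 1.42 and 0.461 (6.93, SE 0.70). The early nodulin-like protein ENODL1 had 92.8 and 106 against 0.752 and 0.974 (5.75, SE 0.39). Among regulators, the heat stress transcription factor HSFA6A had 104 and 84.5 against 0.847 and 1.02 (5.62, SE 0.25), and the phosphatase HAI3 had 68.1 and 52.9 against 0.615 and 0.15 (5.48, SE 0.19). None of these groups overlapped, which was a condition for choosing the largest increases. Each call held when any single library of 12 h was left out.

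Measured as RPKM gained, other genes led. RAB18, a dehydrin, had 4329 and 3910 RPKM with ABA and 97.7 and 83.2 in mock, and LEA7, a late embryogenesis abundant (LEA) protein, had 4201 and 2635 against 108 and 67.4. AT3G02480, another LEA protein, had 3571 and 2050 against 98.2 and 30.7, and RD29B, a classic ABA marker, had 2273 and 1696 against 42.2 and 29.4. Their differences were 5.50, 5.27, 5.59 and 5.76, with SEs of 0.42 to 0.69. Their groups did not overlap, as in every called gene. The cold-induced membrane protein COR413-PM1 rose from 427 and 353 to 2370 and 1846 RPKM (2.43, SE 0.23). COR47, a dehydrin already at 1097 and 978 RPKM in mock, reached 3235 and 2398 (1.43, SE 0.34, limma adjusted p = 0.00672), and its call was lost without ABA replicate 1 (adjusted p = 0.0813) or without mock replicate 2 (adjusted p = 0.0648).

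**Figure D2:**
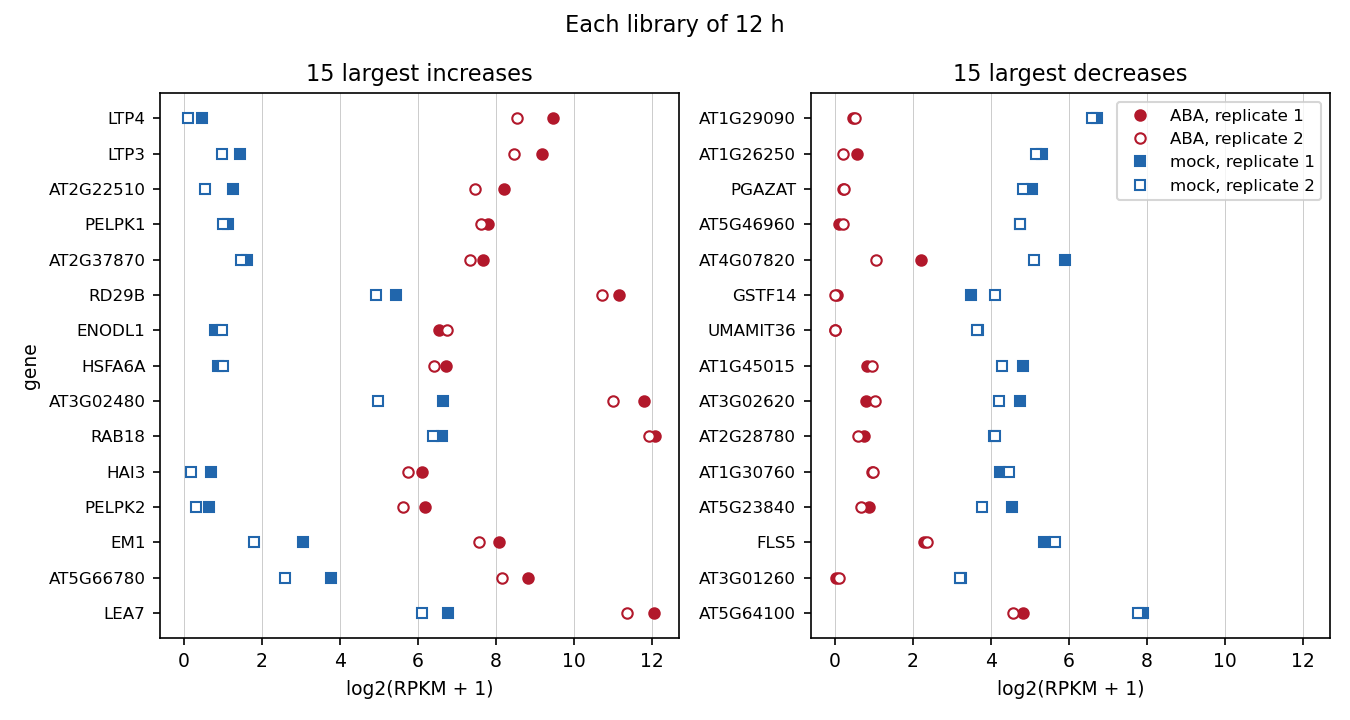
Level in each of the 4 libraries of 12 h (horizontal axis, log2(RPKM + 1)) for the 15 largest increases and 15 largest decreases, filled marks for replicate 1 and open marks for replicate 2. The 30 genes were chosen among called genes whose ABA and mock libraries do not overlap, and UMAMIT36 is at 0 in both ABA libraries.

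The 250 bases before the annotated gene start were read for 18220 of the genes, from the TAIR10.1 assembly with RefSeq annotation, and searched on both strands for the ABRE written as ACGTGTC or ACGTGGC. The windows of 3 large increases, of the largest increase and of the largest decrease are shown 5′ to 3′ on the gene's own strand, with each ACGTG core, and each full ABRE, in capitals. RD29B and RAB18 are shown because they hold the full motif, HAI3 because it holds the core alone, and LTP4 and AT1G29090, a cysteine proteinase gene, because they hold neither.
RD29B, chr5:21236771-21237020, plus strand: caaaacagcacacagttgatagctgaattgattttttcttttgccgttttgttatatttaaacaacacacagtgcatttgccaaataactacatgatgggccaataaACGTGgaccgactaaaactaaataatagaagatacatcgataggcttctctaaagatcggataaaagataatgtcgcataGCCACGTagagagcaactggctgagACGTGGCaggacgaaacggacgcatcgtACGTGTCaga
RAB18, chr5:26519448-26519697, minus strand: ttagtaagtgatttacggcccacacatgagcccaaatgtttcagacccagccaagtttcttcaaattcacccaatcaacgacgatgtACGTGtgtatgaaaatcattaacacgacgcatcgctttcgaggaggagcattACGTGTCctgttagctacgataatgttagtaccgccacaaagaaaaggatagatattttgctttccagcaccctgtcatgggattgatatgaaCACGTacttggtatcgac
HAI3, chr2:12608425-12608674, plus strand: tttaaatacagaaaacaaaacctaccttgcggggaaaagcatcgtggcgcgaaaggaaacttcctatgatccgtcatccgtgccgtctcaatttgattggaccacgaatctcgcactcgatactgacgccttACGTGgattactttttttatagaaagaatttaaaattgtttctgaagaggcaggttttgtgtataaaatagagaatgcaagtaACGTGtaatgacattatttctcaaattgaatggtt
LTP4, chr5:23925958-23926207, minus strand: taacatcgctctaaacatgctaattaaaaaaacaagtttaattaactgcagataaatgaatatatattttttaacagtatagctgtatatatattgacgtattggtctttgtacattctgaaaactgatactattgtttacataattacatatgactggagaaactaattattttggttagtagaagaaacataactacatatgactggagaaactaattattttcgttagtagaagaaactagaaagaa
AT1G29090, chr1:10164453-10164702, minus strand: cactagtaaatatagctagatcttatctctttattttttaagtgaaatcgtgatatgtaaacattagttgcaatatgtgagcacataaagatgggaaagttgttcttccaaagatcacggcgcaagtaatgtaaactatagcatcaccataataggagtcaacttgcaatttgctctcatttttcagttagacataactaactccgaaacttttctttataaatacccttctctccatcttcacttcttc
RD29B held 3 full ABREs, beginning 63, 38 and 10 bases before the gene start, and RAB18 held 1, beginning 111 bases before it.

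Of all 18220 windows, 7.8% held a full ABRE. The share was 20.8% of the 1532 windows of genes that rose, 6.77% of the 15940 of genes not called and 3.34% of the 748 of genes that fell. It was 25% among genes that rose by at least 1 log2 unit, 38.1% by at least 2 and 40.6% by at least 3. Among the 55 that rose by at least 4 it was 36.4%. None of the 64 genes that fell by at least 2 held a full ABRE. The core ACGTG, within a full ABRE or not, stood in 42.6% of the windows of genes that rose and 21.8% of those that fell, against 24.1% of all. The dehydration-responsive element core, written ACCGAC or GCCGAC, stood in 12.1% and 6.42%, against 8.11% of all. The G-box CACGTG, which contains the core on each strand, stood in 19.1% and 4.68%, against 7.8% of all. Among the 15 largest increases 4 held a full ABRE and 11 held the core, and among the 15 largest decreases none held the full motif and 4 held the core. Windows of neighbouring genes can overlap, and a match says only that these letters are present.

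**Figure D3:**
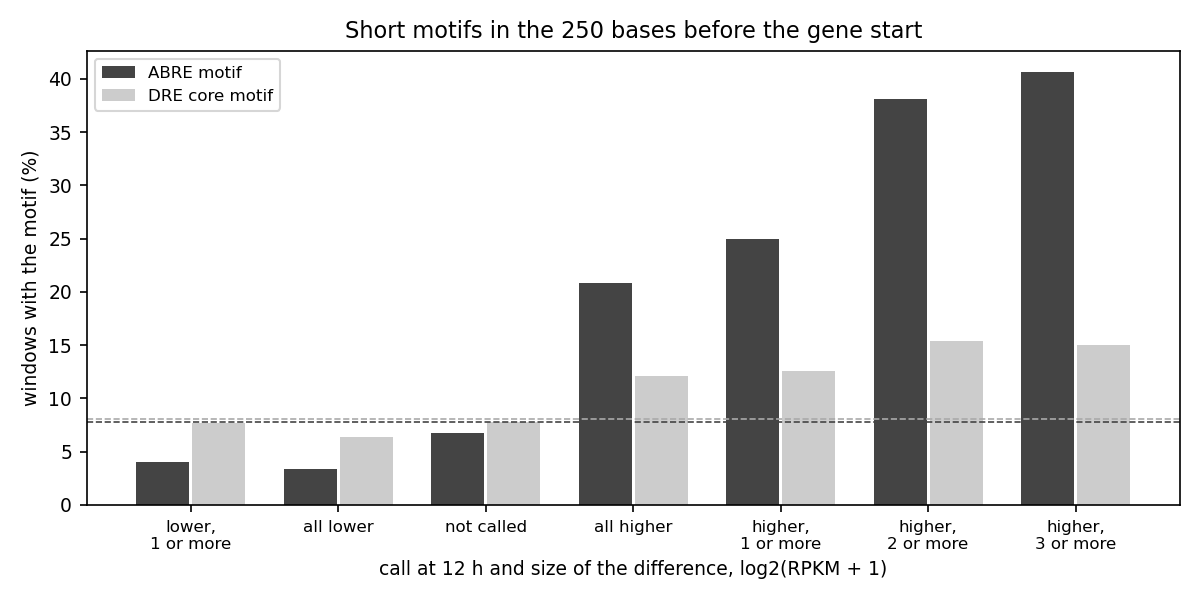
Share of 250-base windows before the gene start that hold a full ABRE (dark bars) or a dehydration-responsive element core (light bars), in percent, for genes grouped by their call at 12 h and by the size of the difference in log2(RPKM + 1). Dashed lines give the share of all windows, 7.8% and 8.11%; the dark bars run from 3.34% of all genes that fell to 40.6% of those that rose by at least 3.

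In the signalling pathway itself, 3 of 8 measured receptor genes fell and none rose, with a list median of -0.75. Counts without the pair term, in this and the later lists, stand against 8.37% of all genes higher and 4.09% lower. PYL4 had 11.4 and 18.6 RPKM with ABA and 68.7 and 83.9 in mock (difference -2.30, SE 0.34, limma adjusted p = 8.97e-05), PYL6 had 0.0847 and 0.0941 against 3.66 and 3.69 (-2.10, SE 0.20), and PYL5 had 302 and 432 reads against 1387 and 1004 (-1.44, SE 0.28). With the pair term 6 receptors were lower, PYR1 (adjusted p = 0.000122), PYL1 (adjusted p = 0.0116) and PYL8 (adjusted p = 0.0126) being the added ones, and PYL7 was higher (adjusted p = 0.00938). Of all genes 11.8% were lower and 16.6% higher with that term. All 9 clade A PP2Cs, which switch the pathway off, rose, with a median of 2.9, and all 9 were called in each of the 4 fits without a library of 12 h. HAI3, HAI1 (152 and 126 RPKM against 5.68 and 5.03, difference 4.46, SE 0.27) and HAI2 (31.9 and 27 against 1.03 and 0.398, difference 4.17, SE 0.29) rose most. The smallest was HAB2, at 44.5 and 42.2 RPKM against 20.5 and 20.7 (1.03, SE 0.11).

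Of 10 SnRK2 kinases 4 rose and none fell, with a median of 0.09 against 0.009 over all genes. SNRK2.9 (14.9 and 8.88 RPKM against 3.91 and 3.43, difference 1.43, SE 0.24) and SNRK2.10 (0.73, SE 0.11) were among the 4, while SNRK2.5 was lower with the pair term alone (adjusted p = 0.00394). Of 8 ABF and ABI5 factors 6 rose, with a median of 1.42. ABI5, the factor of seed germination arrest, had 39.3 and 33.7 RPKM against 8.03 and 6.76 (2.16, SE 0.33), ABF2 rose by 1.88 (SE 0.20) and ABF4 by 1.70 (SE 0.17). In a list of feedback regulators that also held kinase genes, MAPKKK18 and MPK7 among them, 12 of 13 rose, with a median of 1.69. The count and median are therefore not those of feedback regulators alone. Not all of the 12 calls held in every fit without a library. AT5G50360, of a small family of ABA-induced repressors, had 48 and 33.9 RPKM against 2.88 and 1.5 (3.73, SE 0.29), and AFP1, which binds ABI5, had 94.7 and 75 against 13 and 8.99 (2.85, SE 0.35). The kinase gene MAPKKK18 had 9.42 and 6.18 against 1.5 and 0.797 (2.03, SE 0.23).

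Of 20 NAC, MYB and HD-Zip genes 14 were higher and none lower, with a median of 1.17. The HD-Zip gene HB7 had 215 and 167 RPKM against 9.97 and 7.53 (4.30, SE 0.28), and the NAC gene RD26 had 134 and 119 against 16 and 14.9 (2.95, SE 0.15). MYB41, a known activator of suberin genes, had 11.7 and 9.3 RPKM with ABA, from 436 reads in all, and not a read in either mock library. Against a floor of 3 reads over the mock group that is at least 168-fold higher (limma adjusted p = 3.57e-09). Of 18 zinc finger, AP2, HSF and NF-YA genes 8 rose and 1 fell, with a median of 0.54: HSFA6B (23.3 and 14.2 RPKM against 1.03 and 1.32) rose by 3.15 (SE 0.27) and DREB2A by 1.59 (SE 0.21), and AZF1 (0.745 and 0.653 against 2.11 and 2.67) fell by 0.99 (SE 0.20).

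Dehydrins and other LEA proteins had the highest median of the 39 lists. Of 21 dehydrin and other LEA genes 20 rose, with a median of 4.12, and 15 of the 20 were called in all 4 fits without a library of 12 h. LTI30 had 1085 and 704 RPKM against 35.6 and 20.8 (4.95, SE 0.40), and the seed gene EM1 had 269 and 190 against 7.28 and 2.52 (5.39, SE 0.74). In AT3G17520 the values were 1238 and 851 against 44.4 and 16.5 (5.19, SE 0.67). SAG21, the gene not called, had 930 and 735 against 595 and 427 (0.71, SE 0.38), and was higher with the pair term (adjusted p = 0.0343). Replicate 1 was higher than replicate 2 in both treatments for each of these 4 genes. Of 11 RD29, KIN, COR15, RD22 and HVA22 genes 9 rose, with a median of 2.08; KIN1 had 1778 and 1216 RPKM against 66.3 and 28.1 (5.05, SE 0.49) and RD22 had 782 and 773 against 51.4 and 56.3 (3.83, SE 0.19).

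In the list of 21 seed storage and oil body genes 9 rose and none fell, with a median of 1.35. FUS3 and PER1, which encode neither a storage nor an oil body protein, were in the list and among the 9. Some of the 9 calls, those of FUS3 and PER1 included, were lost without mock replicate 2. The FUS3 call was lost whichever of the 4 libraries of 12 h was left out. The oleosin gene OLEO2 had 378 and 209 RPKM against 17.3 and 6.31 (4.61, SE 0.65), another oleosin gene, AT3G01570, had 109 and 97.5 against 5.96 and 2.13 (4.48, SE 0.65), and the caleosin gene RD20 had 89.3 and 91 against 16.2 and 14.9 (2.46, SE 0.20). The albumin gene SESA5 had 77.4 and 158 RPKM with ABA and 51 and 11.7 in mock, where replicates differed too widely for a call (2.1, SE 1.01, limma adjusted p = 0.212; adjusted p = 0.0373 with the pair term). Enzymes of storage oil breakdown gave 1 increase in 8 (median 0.21), a call lost without mock replicate 1. With the pair term 4 of the 8 were higher, against 16.6% of all genes.

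**Figure D4:**
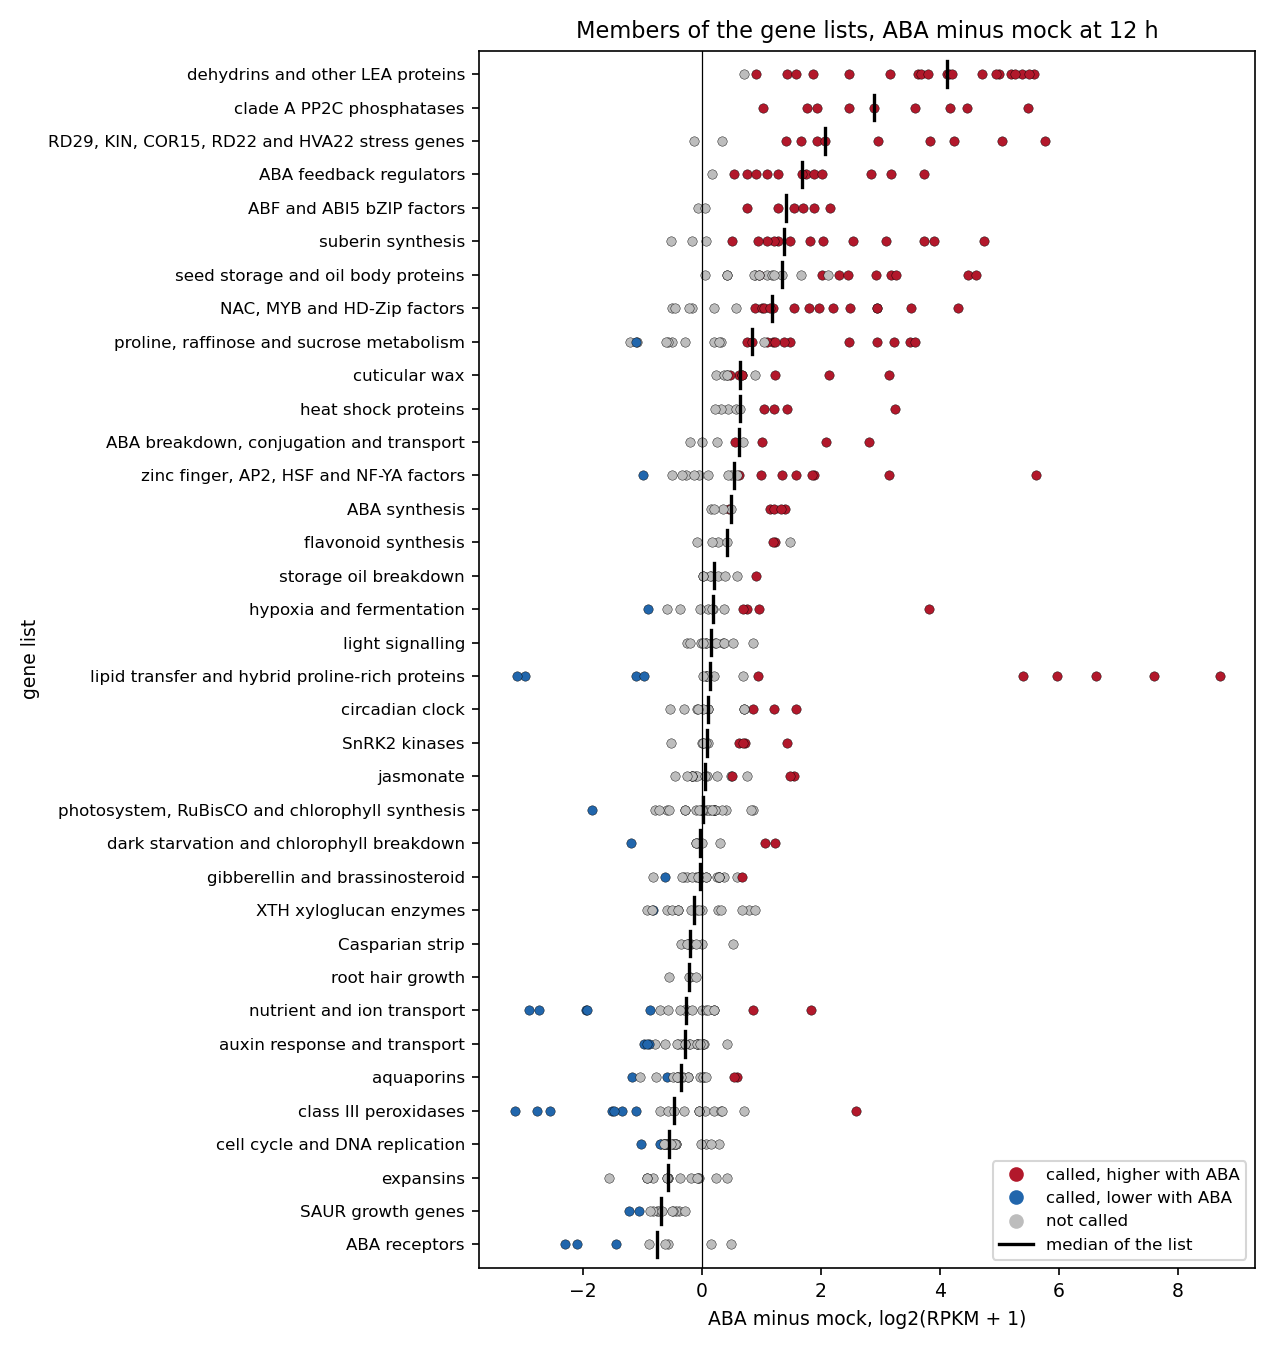
Difference between ABA and mock at 12 h (horizontal axis, log2(RPKM + 1)) for each measured member of 36 gene lists, ordered by list median (black bar) and coloured by call. The LEA list lies farthest to the right, with a median of 4.12, and the receptor list farthest to the left, with a median of -0.75.

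Of 9 ABA synthesis genes 5 rose, with a median of 0.49, and 3 without mock replicate 1 or mock replicate 2. ABA1 had 74.6 and 85.3 RPKM against 29.6 and 29.6 (1.4, SE 0.15), and NCED3, the rate-limiting dioxygenase of drought, had 10.6 and 8.89 against 3.98 and 3.28 (1.22, SE 0.21). Of 8 breakdown, conjugation and transport genes 4 rose, with a median of 0.63, and 2 without ABA replicate 2. The 8′-hydroxylase genes CYP707A1 (76 and 78.3 RPKM against 8.2 and 12.4, difference 2.82, SE 0.28) and CYP707A2 (5.01 and 4.57 against 0.273 and 0.44, difference 2.09, SE 0.21), which start ABA breakdown, showed the largest differences of both lists.

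Of 23 proline, raffinose and sucrose genes 12 rose and 1 fell, with a median of 0.84. P5CS1, the first enzyme of proline synthesis, had 134 and 131 RPKM against 16.1 and 16.9 (2.94, SE 0.22). The second, P5CR, had 51.6 and 57.4 against 68 and 87.5 (-0.50, SE 0.17), which was lower with the pair term alone (adjusted p = 0.00376). Galactinol synthase gene GOLS2 had 50.6 and 31.5 against 2.94 and 2.35 (3.5, SE 0.36), and the sucrose genes SUS3 (96.7 and 107 against 7.64 and 7.54, difference 3.58, SE 0.25) and SPS2F (53.5 and 38.3 against 3.87 and 3.9, difference 3.24, SE 0.15) rose too. GOLS3, the member that fell, had 0.523 and 0.387 against 2.85 and 1.52 (-1.10, SE 0.32), and its call was lost without ABA replicate 1 (adjusted p = 0.081), ABA replicate 2 (adjusted p = 0.148) or mock replicate 1 (adjusted p = 0.28). With the pair term 6 of the 23 were lower, against 11.8% of all genes.

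Suberin, the lipid polyester of root barriers, gave 13 increases and no decrease among 16 measured genes, with a median of 1.39, and 11 of the 13 were called in all 4 fits without a library. With the pair term 13 suberin genes were higher and 1 lower, against 16.6% and 11.8% of all genes. The transporter gene ABCG6 had 34.4 and 27.4 RPKM with ABA and 0.243 and 0.115 in mock (4.75, SE 0.22, limma adjusted p = 4.82e-11). GPAT5, an acyltransferase that builds suberin monomers, had 16.4 and 12.6 against 0.186 and 0.125 (3.74, SE 0.17), and its relative GPAT7 had 19.5 and 10.3 against 0.0239 and 0, where a single mock read was counted against 953 ABA reads (ratio 1104, exact 95% interval 198 to 43666, counting error only). ASFT, which adds ferulate, had 81.1 and 57.3 against 7.01 and 7.29 (3.09, SE 0.23). None of the 9 genes of the Casparian strip, the other barrier of the endodermis, was called (median -0.20): CASP1 had 164 and 95.3 RPKM against 154 and 102, and the regulator MYB36 had 12.6 and 10.3 against 13.2 and 14.2. CASP5 was higher with the pair term (382 and 234 against 256 and 168, adjusted p = 0.0257).

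Cuticular wax genes gave 7 increases in 12, with a median of 0.65, but 3 without ABA replicate 1 and 4 without mock replicate 2. WSD1, a wax ester synthase, had 39.5 and 25.9 RPKM against 3 and 2.48 (3.14, SE 0.25), and CER1, which forms alkanes, had 139 and 124 against 26 and 32.2 (2.14, SE 0.47). Lipid transfer and hybrid proline-rich genes went both ways, with 6 higher and 4 lower of 16. The 4 that fell were AZI1, EARLI1, AT4G12545 and AIR1, of which none was called without ABA replicate 2 or without mock replicate 1 and 2 were called without mock replicate 2. AZI1 had an adjusted p of 0.357 without ABA replicate 2, and EARLI1 of 0.21. AT4G12545 had 22.1 and 8.78 RPKM against 209 and 78.7 (-3.11, SE 0.67), and AIR1 had 67.4 and 15.3 against 433 and 156 (-2.97, SE 0.85). In both, replicate 1 was well above replicate 2 in each treatment, and both calls were lost without ABA replicate 2 (adjusted p = 0.0644 and 0.319) or without mock replicate 1 (adjusted p = 0.0717 and 0.249). With the pair term their adjusted p-values were 7.34e-05 and 0.00168.

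AT1G29090, a cysteine proteinase gene (chr1:10162795-10164452, minus strand), had 0.398 and 0.441 RPKM with ABA, from 11 reads each, and 104 and 95.9 in mock (-6.15, SE 0.24, limma adjusted p = 1.06e-11). AT1G26250, an extensin-like wall protein gene, had 0.502 and 0.155 against 38.6 and 34.5 (-4.83, SE 0.58). PGAZAT, a polygalacturonase that cuts pectin (chr2:17461655-17464242, minus strand), had 0.163 and 0.181 against 32.5 and 27.4 (-4.72, SE 0.23). No ABA library came near a mock library in any of the 3.

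In 4 further decreases hardly a read was left with ABA. UMAMIT36, a membrane transporter gene, had no read in either ABA library and 479 and 351 in mock, which is at least 239-fold lower against a floor of 3 reads over the ABA group. GSTF14, a glutathione transferase gene, had 1 read against 618, AT5G46960, a pectin methylesterase inhibitor gene, 3 against 766, and AT3G01260, a galactose mutarotase-like gene, 3 against 549. Their mock means were 13.4, 26 and 8.38 RPKM. The mock to ABA ratios of reads scaled by depth were 533 (exact 95% interval 95.4 to 21097), 220 (75.1 to 1071) and 158 (53.8 to 768), and all of these intervals cover counting error only. AT3G02620, a stearoyl-ACP desaturase gene, had 22 and 28 reads against 960 and 486 (-3.56, SE 0.56).

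Measured as RPKM lost, 6 genes led, AIR1 among them. AT2G37130, a class III peroxidase gene, went from 730 and 620 RPKM in mock to 235 and 205 (-1.61, SE 0.39), and its call was lost without ABA replicate 2 (adjusted p = 0.0674) or mock replicate 1 (adjusted p = 0.0727). TPX2, here a thioredoxin-dependent peroxidase gene, went from 336 and 307 to 51 and 71.9 (-2.39, SE 0.32), and AT5G26280, a TRAF-like gene, from 402 and 377 to 119 and 138 (-1.59, SE 0.16). BGAL4, a beta-galactosidase gene, went from 544 and 563 to 200 and 266 (-1.26, SE 0.34). TIP1;1, the main aquaporin of the vacuole membrane, went from 644 and 724 to 467 and 442 (-0.59, SE 0.18, limma adjusted p = 0.0355). The BGAL4 call was lost without ABA replicate 1 (adjusted p = 0.141), mock replicate 1 (adjusted p = 0.0815) or mock replicate 2 (adjusted p = 0.101), and that of TIP1;1 without any of the 4 libraries (adjusted p of 0.0776 to 0.225).

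Class III peroxidases, which cross-link or loosen walls, gave 7 decreases and 1 increase in 19 genes, with a median of -0.47, and 4 decreases without mock replicate 2. AT5G64100 had 27.6 and 22.6 RPKM against 236 and 219 (-3.14, SE 0.24), and PRX71 had 8.63 and 20.1 against 96.5 and 94.4 (-2.76, SE 0.58), a call lost without ABA replicate 1 (adjusted p = 0.0552). PRX34 went the other way, at 169 and 167 against 24.2 and 30 (2.6, SE 0.32). Among 18 nutrient and ion transport genes 5 fell and 2 rose, with a median of -0.27, and 1 rose without ABA replicate 1 or mock replicate 2. The phosphate transporter gene PHT1;1 had 1.5 and 1.05 RPKM against 16.6 and 15.2 (-2.90, SE 0.20) and the ammonium transporter gene AMT1;3 had 0.697 and 0.401 against 8.3 and 10.4 (-2.74, SE 0.16). NRT1.5, which loads nitrate into the xylem, had 21.5 and 29.8 against 96.3 and 104 (-1.94, SE 0.27). Outward potassium channels moved in opposite directions: SKOR of the root stele had 0.455 and 0.214 against 3.84 and 4.26 (-1.92, SE 0.16), and GORK, known from guard cells, had 1149 and 919 reads against 311 and 257 (1.83, SE 0.15). Of 19 aquaporins 2 rose and 2 fell, with a median of -0.35, where 8.37% of all genes rose and 4.09% fell. With the pair term 5 were lower, where 11.8% of all genes were. Without ABA replicate 2 or mock replicate 1 there was 1 in each direction, without ABA replicate 1 there was 1 increase, and without mock replicate 2 no increase and 1 decrease. PIP2;3 had 42.1 and 57.4 against 105 and 119 (-1.17, SE 0.24).

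Of 15 expansins, which loosen walls, none was called and 8 were lower with the pair term, with a list median of -0.56; 1 was higher without ABA replicate 2 and 1 lower without mock replicate 2. Of 12 SAUR genes, which promote hypocotyl elongation, 2 fell and 10 were lower with the pair term (median -0.69), all 12 differences being negative, from -1.22 to -0.28. Neither SAUR call remained without ABA replicate 2 or without mock replicate 1. SAUR15 had 78 and 51 reads against 250 and 137 (-1.22, SE 0.26, limma adjusted p = 0.00294), and its call was lost without ABA replicate 2 (adjusted p = 0.0548) or mock replicate 1 (adjusted p = 0.0586). Of 20 cell cycle and DNA replication genes 2 fell and 14 were lower with the pair term (median -0.55), while 5 fell without ABA replicate 1 and none without ABA replicate 2 or mock replicate 1; the replicative helicase gene MCM4 had 3.13 and 2.74 against 4.98 and 5.22 (-0.64, SE 0.22, adjusted p = 0.0703, and 0.00455 with the pair term). Of 22 auxin genes 3 fell, 1 without ABA replicate 2 or mock replicate 1, and 8 were lower with the pair term (median -0.28). The influx carrier gene LAX3 had 35.7 and 29.5 against 65.9 and 58.5 (-0.91, SE 0.16). Counts with the pair term stand against 11.8% of all genes lower with it, and counts without it against 4.09%. Xyloglucan enzymes gave 1 decrease in 16, none without ABA replicate 1 or mock replicate 2, or 5 with the pair term (median -0.12), and 4 measured root hair genes gave none (median -0.21).

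Gibberellin and brassinosteroid genes gave 1 increase and 1 decrease in 22 (median -0.03): the DELLA gene RGL3 rose by 0.67 (SE 0.15), a call lost without mock replicate 2 (adjusted p = 0.0589), and BAS1, which inactivates brassinosteroids, fell by 0.61 (SE 0.13). ADH1, the alcohol dehydrogenase of fermentation, had 87.3 and 69.2 RPKM against 5.23 and 4.01 (3.82, SE 0.22), while the low-oxygen factor gene HRE1 had 2.18 and 1.53 against 4.58 and 4.02 (-0.90, SE 0.14), in a list of 12 with 4 increases, 1 decrease and a median of 0.18; without ABA replicate 1 there were 2 decreases. Of 9 heat shock genes 4 rose (median 0.65), or 2 without ABA replicate 2 or mock replicate 1, led by ATHSP22.0 with 53.4 and 28.9 RPKM against 3.75 and 2.8 (3.25, SE 0.28). Of 12 clock genes 3 rose, and 5 with the pair term (median 0.11), RVE8 by 1.21 (SE 0.25); 1 rose without ABA replicate 1 or mock replicate 2. Of 15 jasmonate genes 3 rose, and 5 with the pair term (median 0.05), but the 3 calls were lost without ABA replicate 1 or mock replicate 2. The clock and jasmonate counts with the pair term stand against 16.6% of all genes higher with it. Without that term 8.37% of all genes were higher and 4.09% lower. The gibberellin and brassinosteroid counts were close to those shares. With the pair term 4 of these 22 genes were higher and 3 lower, where 16.6% and 11.8% of all genes were. Of 7 flavonoid genes 2 rose (median 0.43), but neither call held in every fit without a library. FLS5, a flavonol synthase gene outside that list, was among the 15 largest decreases. It had 3.93 and 4.14 RPKM against 40 and 48.9 (-3.17, SE 0.29, limma adjusted p = 2.93e-07).

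In darkness the photosynthetic genes gave 1 call in 26 (median 0.03): the RuBisCO small subunit gene RBCS1B had 64.6 and 59.4 RPKM against 237 and 213 (-1.84, SE 0.38). With the pair term 3 of the 26 were higher, where 16.6% of all genes were, the light-harvesting gene LHCB2.1 among them (615 and 538 against 403 and 247, adjusted p = 0.000778), and 5 were lower, where 11.8% of all genes were. None of 12 light signalling genes was called (median 0.15), and 4 were higher with the pair term, PIF4 among them (adjusted p = 0.00401). Chlorophyll breakdown genes SGR1 (20.8 and 23 RPKM against 9.57 and 10.4, difference 1.06, SE 0.16) and PAO (50.7 and 66.4 against 23 and 25, difference 1.24, SE 0.17) rose, and the dark-induced gene DIN11 (0.383 and 0.232 against 2.15 and 1.81) fell by 1.19 (SE 0.21), in a list of 8 with a median of -0.03.

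Against the time before, 8 h, no gene's ABA effect differed at 12 h (limma, 0 of 18310 called, 0% in both directions; 91 genes at an unadjusted p under 0.05, and 0 called with voom weights on recovered reads). The median standard error of that difference was 0.26, and the count does not show that the effects were equal. Values at both times were close in the leading genes: LTP4 differed from mock by 8.87 at 8 h and 8.70 at 12 h, and PELPK1 by 6.49 and 6.63. The comparisons at the various times share no library.

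Against 24 h, 10 genes had a larger effect at 12 h and none a smaller one (0.0546% and 0% of the genes tested, 345 genes at an unadjusted p under 0.05). All 10 were higher with ABA at 12 h, and 2 of them, ABCG6 and GPAT5, belong to the suberin list. ABCG6 was at 34.4 and 27.4 RPKM at 12 h with ABA and at 7.2 and 7.83 at 24 h, with mock under 1 RPKM at both times, and its effects differed by 1.86 (SE 0.31, limma adjusted p = 0.0329). GPAT5 fell from 16.4 and 12.6 to 3.87 and 4.7 RPKM between those ABA groups, a difference of 1.44 between effects (SE 0.25, limma adjusted p = 0.0435). The 24 h value was the lowest after 1 h in both, since GPAT5 had 35.3 and 34.3 RPKM by 4 h, 9.64 and 11.8 by 8 h, then 9 and 15.3 by 36 h, and ended with 11 and 9.3 at 60 h. TLP-3, a thaumatin-like protein gene, was at 6.04 and 5.71 at 12 h and 1.3 and 1.43 at 24 h, with mock at 0.452 or less at both (1.67, SE 0.21, limma adjusted p = 0.00527).

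The count against 24 h was not stable. It was 1 without ABA replicate 1 of 12 h, 25 without ABA replicate 2, 3 without mock replicate 1 and 0 without mock replicate 2, and it was 5, 1, 4 and 1 without ABA replicate 1, ABA replicate 2, mock replicate 1 and mock replicate 2 of 24 h. It was 0 with a pseudocount of 0.1, with the 8 libraries of both times alone, or with voom weights, and 15 higher and 1 lower with the pair term. The pair term also lost the calls of AT1G52680 (adjusted p = 0.0739), AT3G50400 (adjusted p = 0.0526) and AT5G04380 (adjusted p = 0.0806).

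Against the mean effect of the other 6 times, which include 1 h, 12 genes had a more positive effect at 12 h and 3 a more negative one (0.0655% and 0.0164%, or 0.0819% in either direction, 449 genes at an unadjusted p under 0.05). TLP-3 differed most clearly, by 1.46 (SE 0.16, limma adjusted p = 0.000708), and was called in all 4 fits without a library of 12 h. Its ABA libraries had 2.2 and 2.62 RPKM by 4 h, reached 4.1 and 5.46 by 8 h and 6.04 and 5.71 by 12 h, and were back to 0.63 and 0.828 by 36 h. HSFA6A differed by 1.63 (SE 0.27) while its ABA level kept between 56.4 and 139 RPKM from 4 h to 60 h; its mock level was 0.847 and 1.02 at 12 h and 15.7 and 8.86 at 60 h. ATHSP22.0, a small heat shock protein gene, differed by 1.90 (SE 0.30), with ABA at 53.4 and 28.9 RPKM at 12 h against 11.6 and 12.4 at 24 h; its effect at 8 h, 3.22, was close to the 3.25 at 12 h, with ABA at 30.4 and 34.1 RPKM. Without ABA replicate 1 the calls of HSFA6A (adjusted p = 0.364) and ATHSP22.0 (adjusted p = 0.333) were lost.

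Among the 3 more negative, AT1G29090 (-2.07, SE 0.26, limma adjusted p = 0.00174) and PGAZAT (-1.44, SE 0.24, limma adjusted p = 0.0226) had their lowest effects at 12 h, where mock still stood at 104 and 95.9 and at 32.5 and 27.4 RPKM. The effects at 8, 12 and 24 h were -5.33, -6.15 and -5.59 for AT1G29090 and -4.64, -4.72 and -4.51 for PGAZAT. Mock of AT1G29090 was 20.1 and 29 at 60 h, and its ABA level stayed at 0.496 or less from 12 h on. AT5G05960, a lipid transfer family gene, had 1.45 and 1.99 RPKM with ABA by 8 h, kept 1.5 and 1.56 by 12 h, and reached 12.9 and 7.16 by 60 h (-1.50, SE 0.24). Its effect was -2.08 at 8 h as well as at 12 h. The 12 became 1 without ABA replicate 1, 3 without mock replicate 1 and 4 without mock replicate 2, and the 3 became 0, 1, 1 and 1 without ABA replicate 1, ABA replicate 2, mock replicate 1 and mock replicate 2. With the pair term there were 26 and 6, with a pseudocount of 0.1 there were 3 and 2, and with voom weights 1 and 0.

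**Figure D5:**
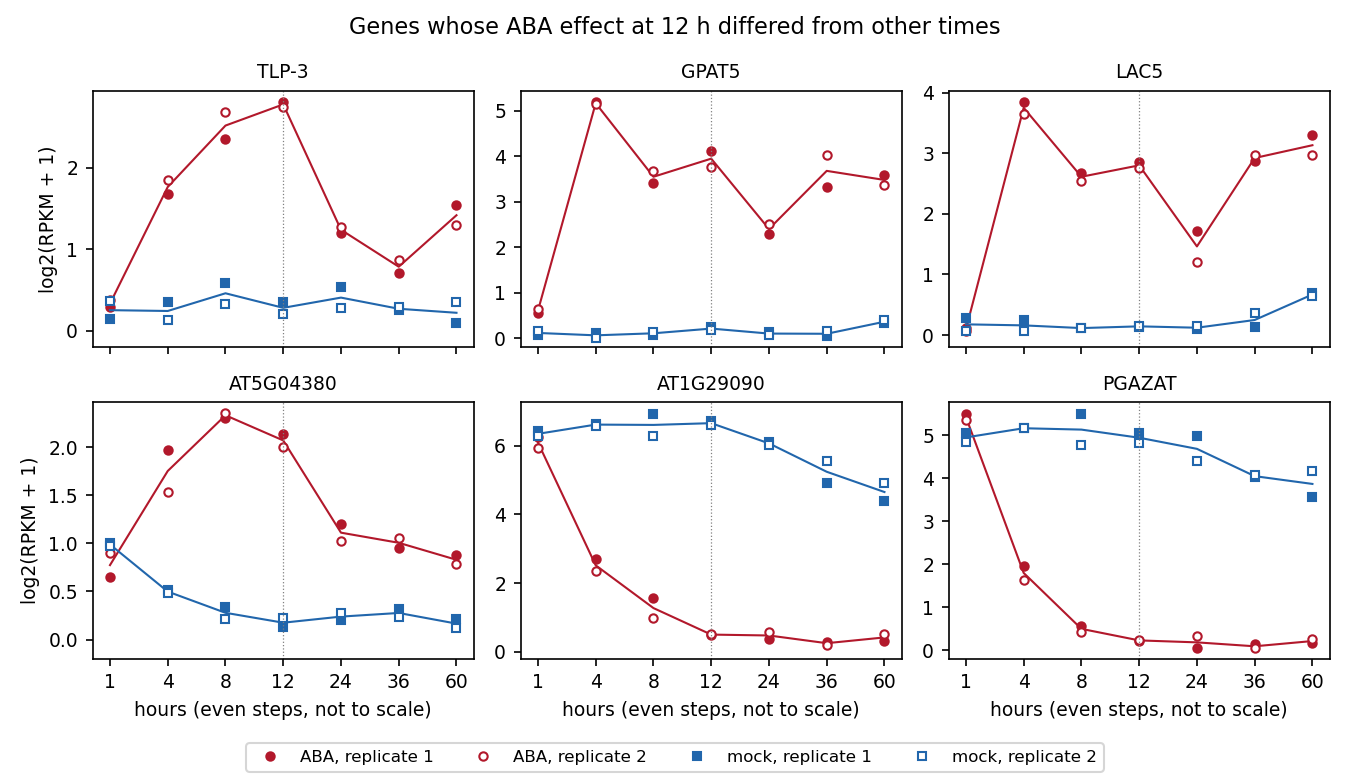
Level (vertical axis, log2(RPKM + 1)) of 6 genes whose ABA effect at 12 h differed from that at 24 h or from the mean of the other 6 times, in ABA (red) and mock (blue) libraries at 1, 4, 8, 12, 24, 36 and 60 h (even steps, not to scale), with lines through the means and a dotted line at 12 h. TLP-3 is highest with ABA at 12 h, where its effect was not called different from that at 8 h. GPAT5 and LAC5 dip at 24 h, and with ABA AT1G29090 is near 0 from 12 h on and PGAZAT from 8 h on.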

How the data were processed

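Libraries were made from poly(A) RNA with a stranded kit, per the labels' protocols. The deposited table gives RPKM for 28 libraries and 18310 genes, with the authors' log2 fold changes and FDR-adjusted p-values. The submitters' processing notes name HTSeq 0.5.4, edgeR 3.6.2 and TAIR10; the aligner is not given in the sources used here. RPKM values were whole multiples of 1 read in 100.0% of 512680 values (tolerance 0.01 read), which gave reads per gene. Depth limits precision most for genes with few reads.

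Values were tested as log2(RPKM + 1) in limma 3.58.1 (R 4.3.3) with 14 group means and an intensity trend, two-sided, with Benjamini-Hochberg adjustment over all genes. The step was tested on simulated data with independent noise in each library. Those data held no deviations shared by same-numbered libraries. RPKM are not counts, so no count test was the main result. Effects at 12 h were also compared with those at 8 h, at 24 h and at the other 6 times. Same-numbered ABA and mock libraries deviated together (r of 0.43 to 0.74 at the 7 times), so the numbers pair libraries. This pairing is a hint from the data and not from the labels. The pair term is given for only some of the genes and lists whose calls it changes. Among the other lists, it gave 10 wax, 7 ABA synthesis and 6 heat shock genes higher. Peroxidases had 2 higher and 9 lower with it, zinc finger, AP2, HSF and NF-YA genes 10 and 3, and root hair genes 1 lower.

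Named genes are the 15 largest increases and decreases, the 6 largest gains and losses in RPKM, genes whose effect differed between times, and members of 39 lists (522 of 587 loci measured). Members and lists were chosen with earlier results of these data known. Gene positions came from the RefSeq annotation of TAIR10.1, which matched 18221 genes. Alternatives were the pair term, pseudocount, filter, libraries fitted, scaling, voom weights, trend and each library left out.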

Additional observations from a re-analysis of the deposited data

Results flagged for a closer look

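Genes whose ABA effect differed between times, by limma's test of the difference itself, are given here with the difference in log2(RPKM + 1). A larger effect at 12 h than at 24 h was found for AT5G04380 (1.02), AT1G52680 (1.15), the laccase gene LAC5 (1.32), GPAT5 (1.44), TLP-3 (1.67), EDA4 (1.70), AT3G50400 (1.71), ABCG6 (1.86), AT1G56320 (1.93) and AT5G13900 (2.14). In TLP-3 the call held in 7 of 8 fits that left out a library of either time, in EDA4 and AT1G56320 in 4, in LAC5 in 2, and in each of the other 6 genes in 1.

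Against the mean of the other 6 times, the effect at 12 h was more negative for AT1G29090 (-2.07), AT5G05960 (-1.50) and PGAZAT (-1.44). It was more positive for AT5G04380 (1.00), AT1G52680 (1.05), AT5G01670 (1.1), AT1G56320 (1.13), AT3G06390 (1.21), AT2G03200 (1.21), AT2G23540 (1.29), AT5G09480 (1.45), TLP-3 (1.46), PELPK1 (1.58), HSFA6A (1.63) and ATHSP22.0 (1.90). The effect at 4 h was larger than at 12 h in PELPK1 (7.03 against 6.63), AT1G56320 (3.70 against 3.16) and AT1G52680 (2.18 against 2.04). The effect at 8 h was larger in AT5G04380 (2.05 against 1.90) and AT5G09480 (2.58 against 2.45). The other genes with a more positive effect had their largest effect at 12 h. The TLP-3 call held in all 4 fits that left out a library of 12 h, those of AT1G29090 and PELPK1 in 3 of 4, and those of AT5G05960 and PGAZAT in none. AT5G04380, AT1G52680, TLP-3 and AT1G56320 differed in both comparisons, which share the libraries of 12 h and of 24 h.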

How the results depend on the processing

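At 12 h the pair term gave 3046 higher and 2162 lower genes in place of 1532 and 749; leaving out a library of 12 h gave 1050 to 1257 higher and 409 to 660 lower. Of the called genes 1181 were called in all 4 such fits (882 higher, 299 lower). The pair term lost 3 calls against 24 h and 1 (AT3G06390, adjusted p = 0.0794) against the other times; beside the calls it added, it changed no other call of a gene named here. Against 24 h the 10 larger effects became 0 with a pseudocount of 0.1, 0 with the libraries of the times compared, 0 with voom weights, and 0 to 25 with a library left out; smaller effects numbered 1 with the pair term and 0 to 1 with a library left out. Against the other times the 12 more positive effects became 26 with the pair term, 3 with the pseudocount, 1 with voom weights and 1 to 17 with a library left out, and the 3 more negative became 6, 2, 0 and 0 to 1. Against 8 h the count was 0 in every setting.

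Among list members not called, leaving out a library of 12 h changed the sign of SESA4 (-0.07 to 1.98), EXPA7 (-0.25 to 1.09), AT4G30170 (-1.17 to 0.04), IAA5 (-0.08 to 0.94), RAP2.3 (-0.77 to 0.04) and HSP23.6-MITO (-0.09 to 0.55), and quantile normalization that of RBCS1A (0.00). A sign change of an uncalled value smaller than its own SE was not counted. The causes were not tested.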
